A study of Mus musculus with 6 samples.

Results

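Alternative 5' splice site events are choices between an upstream and a downstream donor of the same exon, and 698 of the 13002 event names in the splicing array table carried that annotation. All distinct names with the annotation were taken, whatever their values. Intensities were given for 697 of them, in 681 genes. By current RefSeq records 647 of the 681 genes were protein coding, 31 matched no single record, and 84 were found through an older symbol. The annotation was the table's own and was not checked against a genome.

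The arrays measured total RNA of whole brain from 6 mice of a B6.CAST congenic line, 3 homozygous for the B6 allele of Nxf1 (Nxf1 B6) and 3 homozygous for the CAST allele (Nxf1 CAST). Nxf1 encodes the main export receptor for mRNA, and the study asked whether its natural variants shift splicing choices generally. The mice formed 3 same-sex pairs of littermates, 2 female and 1 male. The first female pair was 46 days old and the other female pair 23 days old, while the male pair joined a 22-day-old Nxf1 B6 mouse with a 23-day-old Nxf1 CAST mouse. No other treatment was given in the labels. In a congenic line the whole donor segment of chromosome 19 differs between the groups, not Nxf1 alone.

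The 5' splice site, or donor, marks the end of an exon and is recognised first by base pairing with the U1 small nuclear RNA and then by U6. Where an exon has competing donors, use of the downstream donor keeps the segment between them in the mRNA, and use of the upstream donor removes it with the intron. The choice is set by the strength of each donor and by SR proteins and hnRNP proteins bound nearby. A segment whose length is divisible by 3 adds or removes whole codons if it lies in coding sequence, and any other length shifts the reading frame downstream of it. In brain, donor choice changes receptors, kinases and cytoskeletal proteins, and proteins such as Nova2 are known for steering it in neurons.

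Each event had 4 intensities, on a linear scale in array units: exclusion (upstream donor, short exon) and inclusion (downstream donor, long exon), each for the arrays of set A and those of set B. The sets are not named by genotype in the table. Set B is likely the Nxf1 CAST set, judged by how the table and the Methods define the score and by its sign, and set letters are kept below. The change of an event is the exclusion to inclusion ratio of set B divided by the ratio of set A, as a log2 value, so a change below 0 means relatively more of the long exon in set B. The intensities were already summarized over the animals of a set. No spread between animals could therefore be had, no difference below was tested, and the 3 arrays a set limit the precision of every value. An event is called past the fold when its absolute change exceeded 0.5, a fold of 1.41, which is a rule of size only.

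The tissue was taken from the labels, since levels of different probe sets do not establish it. Summed isoform intensities of the 6 neuron markers with events ran from 4010 to 20035 in set A, those of the 4 oligodendrocyte markers from 2177 to 13379 and those of the 4 astrocyte markers from 1911 to 12338. The 2 microglial markers with events were at 409 and 733, overlapping the 387 and 608 of the 2 markers of other organs. No detection call was given for any event, so whether a dim probe set was above background was not tested. Log2 differences between the sets spanned -0.14 to 0.27 over all these markers, and their part in the splicing values was not tested.

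Segments were mostly short. They ran from 3 nucleotides in Rps28, a ribosomal protein gene, to 3853 in Tro, with a median of 91 and quartiles of 45 and 171. Only 5 segments were under 24 nucleotides (Rps28, Ndufa3, D10Ertd322e, Rpl38 and Arhgap8), 24 exceeded 1000, and 0 had a length of 4. Alternative 3' splice site segments on the same array had a median of 70 nucleotides and started at 24.

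The lengths were unevenly spread over the reading frames. Of the 698 segments 219 (31.4%) were divisible by 3, 187 (26.8%) left a remainder of 1 and 292 (41.8%) a remainder of 2. Remainder 2 was most frequent up to 60 nucleotides, with 122 of 246 segments (49.6%). From 61 to 120 nucleotides it held 79 of 200 (39.5%), above 120 and up to 300 nucleotides 54 of 166 (32.5%), and over 300 nucleotides 37 of 86 (43.0%). In the class above 120 and up to 300 nucleotides it was thus not the commonest, since a remainder of 1 held 60 of 166 (36.1%). Of the 10 commonest lengths, 9 left a remainder of 2, led by 26 nucleotides with 19 events, 29 with 14 and 35 with 12. Alternative 3' splice sites had nearly the same split, with 28.5%, 28.7% and 42.8%. Cassette exons differed, with 53.4% divisible by 3, and retained introns were close to even, with 31.3%, 35.2% and 33.5%. These shares describe what the array was built to measure, and whether a segment lies in coding sequence is not in the table.

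**Figure D1:**
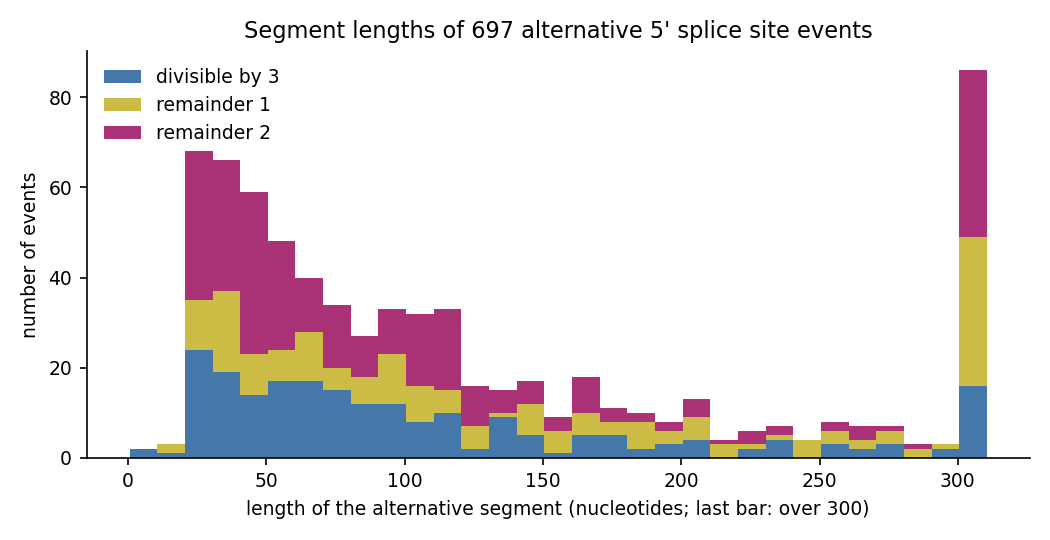
Number of alternative 5' splice site events (y axis) by length of the alternative segment in nucleotides (x axis, bins of 10), for the 697 events with intensities, stacked by remainder after division by 3. Remainder 2 takes the largest part of the bars between 20 and 60 nucleotides, and the last bar gathers the 86 segments over 300.

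Most changes were small. The median change was 0.01, with 354 events above 0 and 342 below, against a median of 0.03 over all 12556 events of every type with values. Of the 697 events 175 (25.1%) had an absolute change under 0.1, and the median absolute change was 0.20, against 0.17 over all events. The tail was longer than in the whole table: the 90th percentile of the absolute change was 0.53 here and 0.45 over all events. Some other types were close to it, with 0.52 for twin cassettes, 0.50 for retained introns and 0.48 for alternative 3' splice sites. Alternative ends had 0.35. Median absolute changes of retained introns (0.22), alternative 3' splice sites (0.21) and twin cassettes (0.21) were above the 0.20 found here. Only 3 alternative 5' splice site events (0.43%) had an absolute change over 1, against 28 (0.223%) of all events.

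Past the fold were 75 events (10.8%), each in a gene of its own, where the background over all 12556 events was 7.24%. The surplus was on the side of the long exon. Exclusion was relatively lower in set B in 47 events (6.74%), against a background of 2.72%, and relatively higher in 28 (4.02%), against 4.52%. Thus 62.7% of the 75 events were lower, while over all other event types 35.4% of those past the fold were lower. Alternative 3' splice sites had 55 higher and 18 lower of 803 events (9.09% past the fold). Cassette exons had 209 higher and 113 lower of 3757 (8.57%), and retained introns 69 higher and 36 lower of 1065 (9.86%). Twin cassettes, a small type that was not plotted, had 12 higher and 4 lower of 152 (10.5%). Of the 7 types plotted by share past the fold, alternative 5' splice sites were the only one with more lower than higher events. The difference between types was not tested, since there are no values per animal. After subtraction of the median change of all events, 54 were lower and 22 higher.

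**Figure D2:**
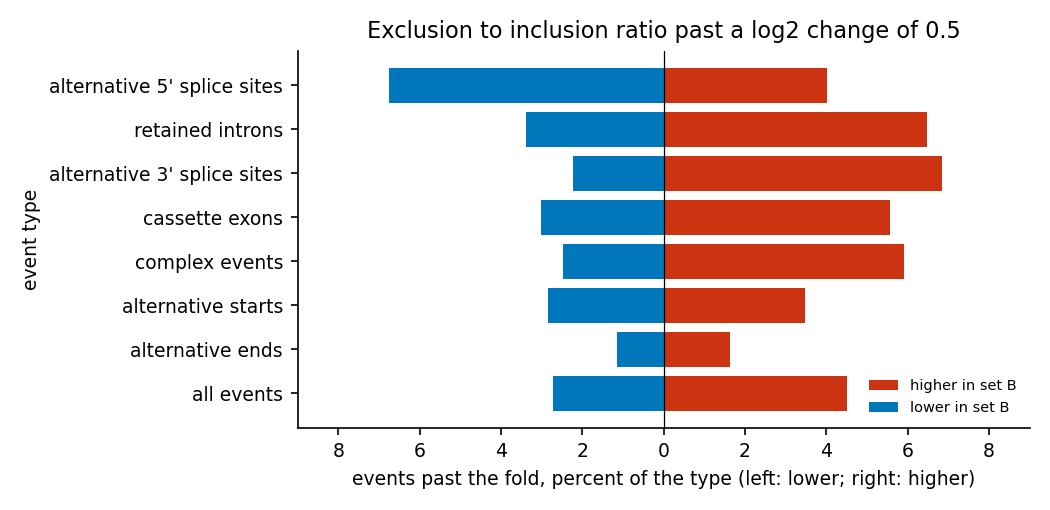
Events past the fold as a percent of each event type (x axis, lower in set B to the left and higher to the right, both from 0), for 7 types and for all events (y axis). Alternative 5' splice sites reach 6.74% on the lower side and 4.02% on the higher side, and the other types are longer on the higher side.

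Taken separately, the isoforms differed in how often they passed the fold. Exclusion intensity alone differed by an absolute log2 of over 0.5 in 57 events (8.18%), against a background of 5.05%, and inclusion intensity alone in 21 (3.01%), against 1.62%. The 57 exclusion differences were evenly split, 29 brighter and 28 dimmer in set B. Of the 21 inclusion differences, 16 were brighter and 5 dimmer in set B. Among these events the split was uneven in the inclusion intensities and in the ratio, and nearly even in the exclusion intensities. The directions of single isoforms were not counted over all events. Whether these splits are particular to alternative 5' splice sites was thus not tested. Brighter inclusion is not by itself a preference for the long exon, since exclusion can be brighter as well. Psmg3, within the fold, had log2 differences of 0.62 for inclusion and 0.26 for exclusion. Of the 47 events with a lower ratio, exclusion differed more than inclusion in 29 and less in 18. Median log2 differences over the 697 events were small for both isoforms, 0.04 for exclusion and 0.03 for inclusion.

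Most events past the fold had isoforms that differed between the sets in opposite directions. This held for 40 of the 47 lower events, of which 2 had both isoforms brighter and 5 both dimmer in set B. Over these 47 the median log2 difference was -0.37 for exclusion and 0.28 for inclusion. Opposite signs were also found in 20 of the 28 higher events, and in the other 8 both isoforms were brighter. There the exclusion isoform differed more, with medians of 0.47 for exclusion and -0.16 for inclusion. Since the change is a difference of these 2 terms, opposite signs are favoured by the choice of events, and the counts are a description.

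**Figure D3:**
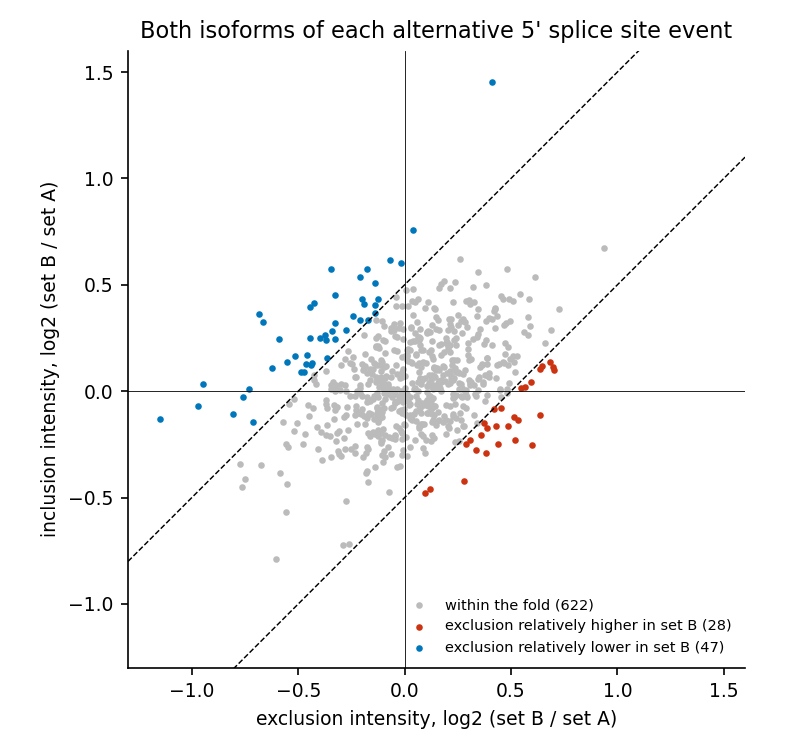
Log2 of set B over set A for the inclusion intensity (y axis) against the same for the exclusion intensity (x axis), each point an alternative 5' splice site event, with dashed lines at a change of 0.5 either way. The 47 lower events lie above the upper line, the 28 higher events below the lower line, and the event of uc007krv-1 stands alone at an inclusion difference of 1.45.

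The share of inclusion in the summed intensity of both isoforms was nearly equal in the sets. Set A had a median of 56.4% and set B of 56.6%. Among the 47 lower events it was 1.89 to 16.8 points higher in set B, with a median of 9.996 points, and among the 28 higher events set B minus set A ran from -12.9 to -3.95 points, with a median of -8.95. Exclusion and inclusion are read by different probe sets, so such a share depends on how brightly each binds and is no measure of the molar share of an isoform.

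The lowest change, -1.05, belonged to the transcript uc008puf-1, with a segment of 107 nucleotides on chromosome 3 (87976180 to 87979772, minus strand, positions as in the table, whose genome build is not stated). Exclusion read 122 in set A and 76 in set B, while inclusion read 289 and 372. Next came uc007krv-1, with a segment of 164 nucleotides on chromosome 11 (85518320 to 85519696, minus strand) and a change of -1.04. Exclusion read 668 and 889 and inclusion 133 and 364, so both isoforms were brighter in set B and inclusion by far more. No gene symbol was given for either transcript.

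Rpf2 (listed as Bxdc1), a factor of large ribosomal subunit assembly, had a change of -1.02 at a segment of 409 nucleotides on chromosome 10 (39964523 to 39966758, minus strand). Exclusion was at 184 and then 83 (set A, set B), with inclusion at 267 and 244, so the difference lay mostly in the short exon. Cep112 (listed as Ccdc46), a centrosomal protein gene, had a segment of 44 nucleotides and a change of -0.99. Exclusion was at 122 and 77, and inclusion at 354 and 444. In Yes1, a kinase of the Src family, a segment of 461 nucleotides on chromosome 5 (32913748 to 32942703, plus strand) gave -0.98, from exclusion at 181 and 94 and inclusion at 135 and 138. In Yes1 too the difference lay mostly in the short exon.

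Dpysl5, a collapsin response mediator protein of growing neurons, had a change of -0.92 at a segment of 166 nucleotides, with exclusion at 370 (set A) and 291 (set B) and inclusion at 94 and 140. Utrn encodes utrophin, the relative of dystrophin, and its segment of 31 nucleotides had a change of -0.90, with exclusion at 137 and 70 while inclusion differed by a log2 of -0.07 from 127 in set A. Tax1bp1, an autophagy receptor, was the brightest of these events. Its segment of 32 nucleotides on chromosome 6 (52663829 to 52671312, plus strand) had exclusion at 1224 and 912 and inclusion at 371 and 495, a change of -0.84. Il12b, a cytokine subunit known from immune cells, had a change of -0.84 at a segment of 105 nucleotides, from 136 and 100 for exclusion and 215 and 283 for inclusion. These intensities are as dim as those of markers of other organs, and whether Il12b was above background was not tested. Trmt10a (listed as Rg9mtd2), a tRNA methyltransferase, also had a change of -0.84 at a segment of 110 nucleotides, with exclusion at 137 and 91 and inclusion at 123 and 146. Among the 10 lowest events only Il12b had a length divisible by 3.

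The other 37 lower events ran from -0.78 to -0.50. They included Srp14 of the signal recognition particle, where exclusion was at 291 (set A) and 232 (set B) and inclusion at 203 and 278, a change of -0.78. Hspb11, an intraflagellar transport subunit, had exclusion at 333 and 288 and inclusion at 375 and 544, a change of -0.75. Ift52 belongs to the same transport machinery and had a change of -0.58. In Lonp1, the mitochondrial matrix protease, the change of -0.73 came mostly from exclusion, at 350 and 227 against inclusion at 218 and 235. Cd68, a lysosomal glycoprotein of macrophages, had a change of -0.72 through inclusion, at 172 and 291, with exclusion at 914 and 940. Ezh2, the methyltransferase of a Polycomb complex, had exclusion at 84 and 67 and inclusion at 1258 and 1491, a change of -0.57. Abhd2, a lipase gene, had exclusion at 2061 and 1703 and inclusion at 269 and 328, a change of -0.56. These genes were picked as examples after their values were seen.

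On the other side, the highest change was 0.86, in Lyl1, a basic helix-loop-helix transcription factor of blood cells. Whether Lyl1 was above background was not tested. Its segment of 32 nucleotides on chromosome 8 (87226569 to 87226710, plus strand) had exclusion at 436 (set A) and 661 (set B) and inclusion at 173 and 145. Pip5kl1, a relative of the phosphatidylinositol phosphate kinases, followed at 0.75 with a segment of 125 nucleotides on chromosome 2 (32431414 to 32432170, plus strand). Its exclusion intensity was 202 and 314 and its inclusion intensity 243 and 225. The transcript uc007kup-1 had a segment of 1370 nucleotides and a change of 0.75, with exclusion at 130 and 186 and inclusion at 374 and 319. Sec11c, a signal peptidase subunit, had a change of 0.70 at 72 nucleotides, with exclusion at 85 and 103 and inclusion at 264 and 197.

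Dcx encodes doublecortin, the microtubule protein of migrating neurons, and its segment of 172 nucleotides on the X chromosome (140365869 to 140367612, minus strand) had a change of 0.68. Exclusion was at 76 (set A) and 103 (set B) and inclusion at 255 and 215. Pram1, an adaptor known from myeloid cells, had a change of 0.67 at 34 nucleotides, with exclusion at 214 and 279 and inclusion at 93 and 76. Whether Pram1 was above background was not tested either. Coq4, of coenzyme Q synthesis, also had a change of 0.67, at 28 nucleotides, with exclusion at 163 and 236 and inclusion at 187 and 170. Ube4a, a ubiquitin ligase, had a change of 0.65 at 26 nucleotides, from 252 and 353 for exclusion and 327 and 292 for inclusion. Ccdc15, a coiled-coil protein gene, had a change of 0.63 at 233 nucleotides, with 70 and 100 for exclusion and 214 and 197 for inclusion. Uxs1, which makes UDP-xylose, was the brightest of the 10 highest events, with exclusion at 352 and 444 and inclusion at 1748 and 1441, a change of 0.61 at 90 nucleotides. In all of the 10 highest events exclusion was brighter and inclusion dimmer in set B.

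**Figure D4:**
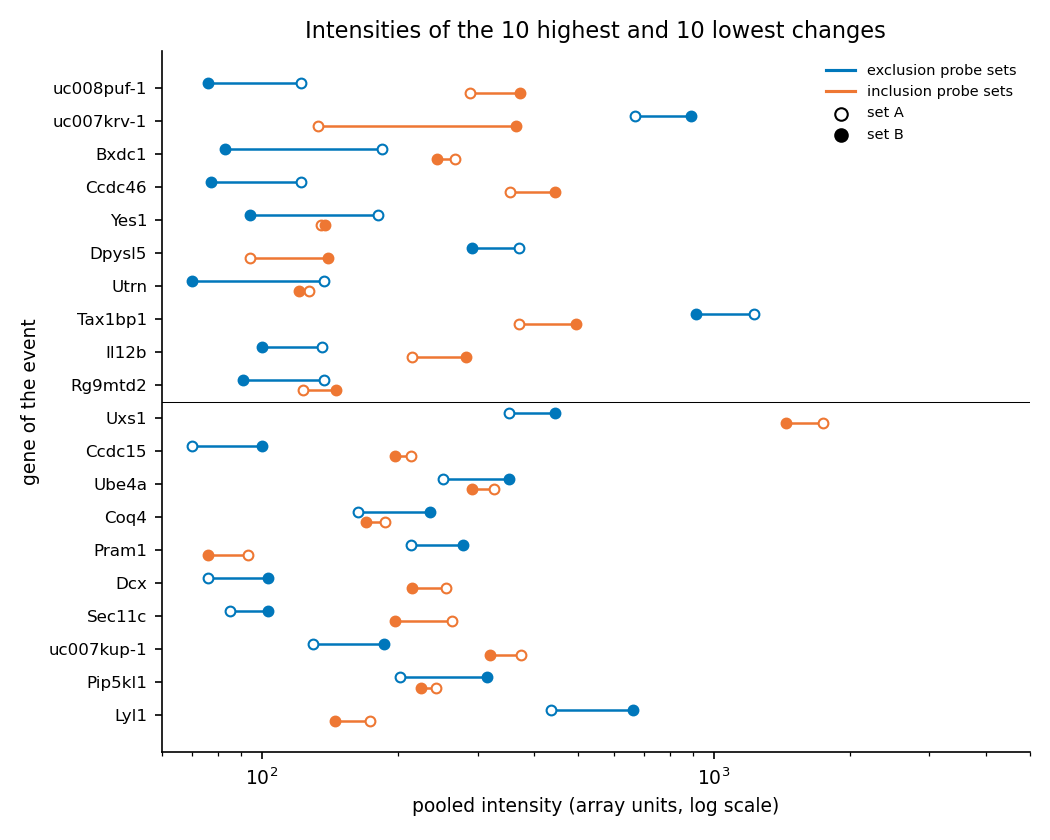
Intensities of the 10 lowest (upper block) and 10 highest (lower block) changes, on a logarithmic x axis in array units, with open circles for set A and filled circles for set B, exclusion in blue and inclusion in orange, and a gene of the table in each line of the y axis. In the lower block every exclusion line runs right and every inclusion line left, while in the upper block uc007krv-1 is the only gene with both filled circles to the right.

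The remaining 18 higher events ran from 0.50 to 0.60. They included Rae1, an mRNA export factor and thus of the same pathway as Nxf1, where exclusion was at 436 (set A) and 565 (set B) and inclusion at 1098 and 989, a change of 0.52. Dap3, of the small mitochondrial ribosomal subunit, had exclusion at 161 and 261 and inclusion at 791 and 856, a change of 0.58. Calpastatin (gene symbol Cast), the inhibitor of calpain proteases, had exclusion at 78 and 102 and inclusion at 195 and 173, a change of 0.56. Rhbdd3, of the rhomboid family, had a change of 0.55 with both isoforms brighter, exclusion at 217 and 349 and inclusion at 394 and 434. These genes too were picked as examples after their values were seen.

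The share past the fold was lowest for segments divisible by 3. It was 20 of 219 events (9.13%) for lengths divisible by 3, 22 of 186 (11.8%) for a remainder of 1 and 33 of 292 (11.3%) for a remainder of 2. Lower events outnumbered higher ones in each class, by 12 to 8, 15 to 7 and 20 to 13. The gap was wider for the exclusion intensity alone, with 11 of 219 events (5.02%) divisible by 3 and 46 of 478 (9.62%) not divisible. Median absolute changes were close, 0.19 for divisible lengths and 0.20 for the others. None of these differences was tested.

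By length, the split was most uneven among segments of 61 to 120 nucleotides, where 16 of the 20 events past the fold (of 199) were lower. Lower events made up 8.04% of that class, against 6.74% of all 697 events. Higher events made up 2.01%, against 4.02%. From 31 to 60 nucleotides 13 of 20 (of 173) were lower, from 7 to 30 nucleotides 3 of 6 (of 72), and above 120 and up to 300 nucleotides 11 of 23 (of 166). Over 300 nucleotides 6 of 86 were past the fold, 4 of them lower, although 57 of the 86 changes were above 0 and their median was 0.09. Over the 697 events the Spearman correlation of length with the absolute change was 0.03, a description over events that share the same arrays.

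Gene groups were matched by patterns in the symbols, so each holds only a part of the genes with that function, and its counts are for the matched genes alone. The counts stand beside 10.8% past the fold among all alternative 5' splice sites and 7.24% among all events. Shares of the groups ran from 0 for vesicle trafficking and small GTPase genes to 20% for mitochondrial and translation genes. The groups are small, and no difference from these shares was tested. Matched mitochondrial and translation genes had 5 of 25 events past the fold, 4 of them lower, among them Mrps15 (-0.61) and Mrps23 (-0.51) of the mitochondrial ribosome and Uqcr11 (listed as Uqcr, -0.52) of the respiratory chain. Coq4 was the higher event of the matched genes. Lonp1 (-0.73) and Dap3 (0.58) also act in mitochondria and were past the fold, but the patterns did not match them. Mrps15 had exclusion at 1208 (set A) and 936 (set B) and inclusion at 458 and 541. The median change over the 25 events was -0.16, with 16 below 0, against 0.01 over all alternative 5' splice sites. Matched transcription and chromatin genes had 5 of 40 (12.5%), with 4 lower, among them Ing1 (-0.73), Sox13 (-0.60) and Hdac6 (-0.57). Tcf19 (0.57) was higher. Lyl1 (0.86) and Ezh2 (-0.57), past the fold on either side, were not matched.

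Matched splicing factors and RNA-binding proteins had 2 of 19 events (10.5%) past the fold, both lower. Nova2, the neuronal splicing regulator, had exclusion at 1139 (set A) and 1044 (set B) and inclusion at 665 and 899, a change of -0.56. Hnrnpa3 had exclusion at 216 and 196 and inclusion at 520 and 739, a change of -0.65. In both, the difference lay mainly in the long exon.

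Of 10 events in matched neurotransmitter receptor and synaptic genes, Grik5, a kainate receptor subunit, was past the fold, with exclusion at 700 and 613, inclusion at 1002 and 1330 and a change of -0.60. Matched kinases and phosphatases had 2 of 16, Nek4 (-0.69) and Pip5kl1, and the kinase genes Yes1 (-0.98) and Aurka (-0.54) were past the fold without a match. Matched ubiquitin pathway genes had 2 of 32, the SUMO protease gene Senp2 (-0.57) and Ube4a. Matched transporters and channels had 2 of 28, both higher, Slc35b3 (0.58) and Trpc2 (0.53), a channel known from the vomeronasal organ. Matched cytoskeleton and motor genes had 1 of 10, while Dcx (0.68) was not matched. Matched vesicle trafficking and small GTPase genes had 0 of 14, between -0.42 and 0.48, while Washc1 (listed as ORF19, -0.65), of the WASH complex on endosomes, and Ralgps1 (-0.64), an exchange factor for Ral, were past the fold without a match. No pattern matched 503 events, with 55 (10.9%) of them past the fold, close to the 10.8% of all alternative 5' splice sites. The unmatched genes named here were picked after their values were seen.

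Large changes were more frequent where a probe set was dim. Ranked by the dimmest of their 4 intensities, the dimmest 232 events had 34 (14.7%) past the fold, the next 232 had 20 (8.62%) and the brightest 233 had 21 (9.01%). Lower events outnumbered higher ones by 22 to 12 among the dimmest and by 15 to 6 among the brightest, and those between had 10 of each. The Spearman correlation of the absolute change with the dimmest intensity was -0.11, and -0.12 over all events. Intensities of the alternative 5' splice sites ran from 50 to 6472. With all 4 intensities at 100 or more, 48 of 533 events were past the fold, 31 lower and 17 higher.

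**Figure D5:**
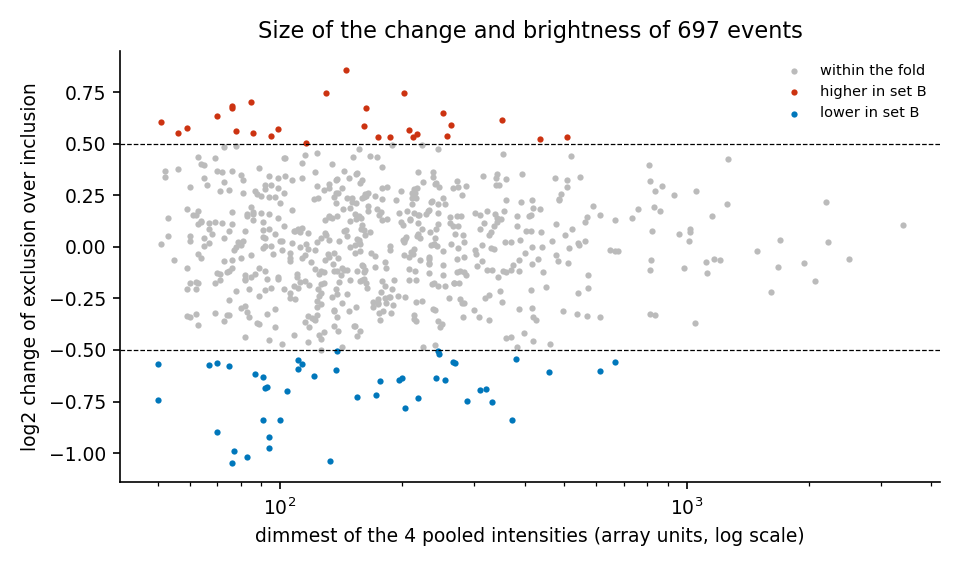
Change of each of the 697 events (y axis, log2 of exclusion over inclusion, set B over set A) against the dimmest of its 4 intensities (x axis, array units, logarithmic), with dashed lines at 0.5 and -0.5. The 10 lowest events had dimmest intensities from 70 to 371, and the brightest event past the fold, in Nova2, had 665.

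The threshold cut through closely spaced values. Just inside it lay Ankrd61 (listed as 4921520G13Rik, 0.504) and Mrps23 (-0.505), and just outside it Tmem147 (-0.499) and 5830418K08Rik (0.492). With the threshold at 0.4, 116 events were past it, 68 lower and 48 higher.

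In 14 genes more than 1 alternative 5' splice site was measured, and none of those events was past the fold. Hira, a histone chaperone, had 0.41 and -0.09. The splicing regulator Sfswap (listed as Sfrs8) had 3 events at 0.36, 0.19 and 0.15, all above 0. Rnf214 had 3 events at -0.35, 0.18 and -0.06, on both sides of 0. BC031181 had -0.33 and 0.15.

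Other events of the same genes were seldom past the fold. Of the 75 genes with an alternative 5' splice site past the fold, 38 had 69 events of other types, and 2 of these (2.90%) were past the fold. The first was a cassette exon of Ube4a, with exclusion at 375 in set A and 652 in set B, inclusion at 531 and 425 and a change of 1.12. The other was an alternative end of Trpc2, with a change of 0.76. Both shared the direction of the gene's alternative 5' splice site. Over all 681 genes, 42 of 706 other events (5.95%) were past the fold, and over all events of the array 7.24%. The 69 events include alternative ends and starts, types with 2.78% and 6.32% past the fold over the array. The part of this mix of types in the low share was not tested. The cassette exon of Ube4a overlaps the span of its alternative 5' splice site, and whether they share probes is not in the table.

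The congenic segment held few of the events. Between the outermost events of the genes drawn inside it by the study, chromosome 19 from 7053631 to 11866235, there were 2, and neither was past the fold. Cpsf7 (listed as 5730453I16Rik), a subunit of a cleavage factor for mRNA 3' ends, had exclusion at 349 in set A and 279 in set B, inclusion at 275 and 261 and a change of -0.25. Sdhaf2 (listed as 0610038F07Rik), an assembly factor of succinate dehydrogenase, had exclusion at 156 and 126, inclusion at 277 and 243 and a change of -0.12. Over the whole of chromosome 19, 0 of 21 events were past the fold. The 75 events lay on 19 other chromosomes, from 1 each on chromosomes 12 and 18 to 9 of 74 on chromosome 2.

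Of genes that the study examined elsewhere, 2 had an alternative 5' splice site on the array. Rgs3, a regulator of G protein signalling, had exclusion at 97 (set A) and 110 (set B) and inclusion at 255 and 277, a change of 0.06. Daam1, a formin that assembles actin, had exclusion at 345 and 340 and inclusion at 868 and 680, a change of 0.33. Neither was past the fold.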

How the data were processed

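Total RNA of whole brain from 6 mice, 3 for each Nxf1 allele, was read on 6 splicing-sensitive Affymetrix arrays (MJAY). The labels name Affymetrix Power Tools. Normalization, background correction, versions and the genome build are not given in the sources used here. The authors deposited a table with exclusion and inclusion intensities as whole numbers for a set A and a set B, already summarized over the animals of a set. The authors' deposited log2 separation scores were used only for their sign, to judge which set was likely the Nxf1 CAST set. The scores and q-values are the authors' own comparisons and were otherwise not used. The number of arrays limits the precision.

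Rows of an event mirror each other, with exclusion and inclusion exchanged. They were turned the same way, joined by event name, and the row with the largest absolute change was kept. The change is log2 of (exclusion / inclusion in set B) over (exclusion / inclusion in set A), with no constant added and no filter. The threshold of 0.5 is the fold of the study's Methods, which also required a false discovery rate cutoff. That cutoff was not applied here and no test was possible, so events past the fold are not significant events in the study's sense. All 12556 events with an exclusion path and 4 intensities served as background. The calculation was tested on simulated data.

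Genes are named by a rule: the 10 highest and 10 lowest changes past the fold with intensities of at least 50, members of the congenic interval, genes the study names, members past the fold in 9 gene groups (at most 4 a group), and at most 5 genes with several events. Tcf19 and the examples marked in the text were added after their values were seen. The members, lists and rules were chosen with earlier results of these data known. Gene groups were matched by symbol patterns and are incomplete, and 13 wrong matches were removed after values were seen. The alternatives were other thresholds, dim filters, paths, an added constant of 16, genes in place of events, the interval left out, centring, and single isoforms. Some results that the rule names are not reported here. No donor sequence is shown, because no genome was used here. Calculations used pandas 2.3.3 and numpy 2.4.6 under Python 3.11.15. Intervals came from scipy 1.17.1, and figures from matplotlib 3.10.9.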

Additional observations from a re-analysis of the deposited data

How the results depend on the processing

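The table has no values per animal: no replicate could be left out and no interval covers variation between mice. No paired analysis was possible because the table gives intensities summarized over the animals of a set, not values per replicate. The count of 75 events past the fold became 116 with a threshold of 0.4, 3 with a threshold of 1, 48 with all 4 intensities at least 100, and 21 for the inclusion intensity alone. The share of these events that were lower in set B, 62.7%, became 100% of the 3 events past a threshold of 1 and 76.2% for inclusion alone, where lower stands for brighter inclusion, and it turned to 49.1% for exclusion alone. The share with a length divisible by 3, 26.7%, became 0 past a threshold of 1 and 14.3% for inclusion alone, and the share with a length up to 60, 34.7%, became 0 and 61.9%. The median change of 0.01 became -0.0258 after centring, 0.0365 for exclusion alone and -0.0341 for inclusion alone (with the sign turned), and the median absolute change of 0.20 became 0.14 for inclusion alone. The cause of these differences was not tested. The other 53 recomputed values stayed within 1.5 times the count, or within the 95% interval of the share (Wilson) or median over events, which covers the number of events only. A filter at 50 and the choice of path altered none of the 6 results, since the lowest intensity was 50 and the rows mirror each other.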
